A study of Homo sapiens with 15 samples.

Results

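The erythroid transcription factors described here are 10 genes whose products switch on, hold together or restrain the gene programme of red blood cell precursors: GATA1, ZFPM1, TAL1, LYL1, LMO2, LDB1, KLF1, NFE2, HEMGN and GFI1B. They were chosen by name, with earlier results of these data known, and all 10 were found among the 60649 genes of the count table. The measurements were mRNA sequencing counts of K562 cells. K562 is an established line of human cells from a chronic myeloid leukaemia, with a BCR-ABL fusion gene and a partly erythroid character. The cells were left untreated or were exposed for 24 h to martinostat at 1 of 4 doses (1 µM, 0.5 µM, 0.25 µM or 0.15 µM). Martinostat inhibits histone deacetylases (HDACs), the enzymes that remove acetyl groups from histones and other proteins. Each of the 5 groups held 3 libraries, numbered in the labels as biological replicates, and there were 15 libraries in all. The only control was the untreated group and all groups came from 1 cell line. The study describes the sequencing replicates as independent experiments, and p-values measure the spread between these libraries. The question was how the dose of martinostat moves the mRNA of each factor.

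GATA1 is the zinc finger factor that binds the word GATA in the control regions of most erythroid genes, and ZFPM1 (FOG1) is its cofactor. TAL1 or its relative LYL1 binds DNA at E-boxes together with an E protein, and LMO2 and LDB1 bridge that pair to GATA1, so that these proteins work as a complex. KLF1 activates genes through CACCC boxes, NFE2 is the tissue-restricted subunit of the factor NF-E2, HEMGN is a nuclear protein of erythroid precursors, and GFI1B is a repressor that recruits the histone demethylase KDM1A and HDACs.

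Library totals ranged from 23755510 to 32805574 counts. Levels are given as CPM, the counts of a gene relative to the total of its library, after TMM scaling, which sets libraries against each other on the assumption that most genes keep their share. On the third principal component, which held 3.84% of the variance, the third replicates at 0.25 and 0.5 µM stood apart, at -78.4 and -82.6, with the other 13 libraries at -25.4 or higher. Without them, 8 factors were called at 0.25 µM and 9 at 0.5 µM against untreated. With them 7 and 9 were called, beside 62.3% and 66.9% of all genes tested. The shares of all genes without them are not given here. Values of single factors that moved are given below. Of 4 erythroid markers (GYPC, TFRC, EPOR and ALAS2) none was at 0, and their summed level was 1802 to 2023 CPM in untreated libraries against 489.9 to 600.3 CPM at 1 µM. Most of that sum was TFRC, with a mean of 1228 CPM untreated and 485 CPM at 1 µM. The markers differed: at 1 µM GYPC was at 2.69% of untreated, ALAS2 at 15.4%, TFRC at 39.5% and EPOR at 63.3%. At 0.15 µM ALAS2 (138%) and EPOR (118%) lay above untreated, and GYPC (37.4%) and TFRC (34.4%) below it. The summed levels of markers of other blood cells were far lower. The 4 megakaryocyte markers summed to 4.74 to 5.14 CPM untreated and 32.3 to 35.7 CPM at 1 µM, with GP9 and PF4 at 0 in the untreated libraries. The 3 myeloid markers summed to 0.386 to 0.978 and 23.7 to 31.8 CPM, with MPO at 0 untreated, and the 3 lymphoid markers to 2.82 to 4.93 and 8.67 to 9.76 CPM, with MS4A1 at 0 untreated. Most of the myeloid sum at 1 µM was CSF1R, with a mean of 25.9 CPM. The part of all these markers in the results below was not tested. In bulk RNA, fewer cells of a kind and less RNA per cell cannot be told apart.

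The scaling bears on every fold change. The median log2 fold change of all 23711 genes tested was 0.28, 0.32, 0.34 and 0.32 at the 4 doses, lowest dose first, against 0.64, 0.85, 0.72 and 0.67 when libraries were scaled by their totals alone. Another scaling of the same genes moves all of them alike, so changes relative to that median had to agree and test nothing. They were close for all 10 factors under TMM, RLE (the scaling of DESeq2), totals and TMM from genes of at least 10 CPM. At 1 µM, for example, GATA1 lay at -4.44 on the log2 scale, ZFPM1 at -1.03 and LYL1 at -0.62 relative to the median. At 0.15 µM GATA1 lay at -0.35, TAL1 at -0.28 and NFE2 at 0.44 relative to the median. The median depends on the genes kept. With at least 10 counts in every library it was 0.039 at 0.15 µM, with GATA1 at 0.11 before subtracting it. In that setting it was 0.050 at 1 µM, with ZFPM1 at -0.44 before subtracting it.

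Because GATA1 acts through GATA words, the stretches just before the start sites of the factors' own genes are shown for those that hold such a word. Start sites and sequences were those of RefSeq on GRCh38.p14. Entries were found for 8 of the 10 genes, with 11 windows of 250 bases before the start. NFE2 and LMO2 had no entry. A GATA word (either AGATAA or AGATAG, or else TGATAA or TGATAG, on both strands) stood in 6 windows of 5 genes, namely KLF1, TAL1, HEMGN (both windows), LYL1 and GFI1B, and in no window of GATA1, ZFPM1 or LDB1. The same words stood in 22.3% of all 35116 windows of that length. The windows of LYL1 and one of GFI1B overlap annotated exons and are not printed. Capitals mark the GATA words, which read TTATCT or CTATCT, or else TTATCA or CTATCA, where they lie on the other strand. Each sequence is written 5′ to 3′ on the strand of the gene, without bases that lie in an annotated exon.
KLF1, chr19:12887202-12887451, minus strand: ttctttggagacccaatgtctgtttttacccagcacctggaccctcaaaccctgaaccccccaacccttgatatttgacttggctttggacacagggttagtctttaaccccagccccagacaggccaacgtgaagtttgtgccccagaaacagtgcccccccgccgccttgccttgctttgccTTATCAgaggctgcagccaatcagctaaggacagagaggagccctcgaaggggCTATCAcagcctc
TAL1, chr1:47232336-47232585, minus strand: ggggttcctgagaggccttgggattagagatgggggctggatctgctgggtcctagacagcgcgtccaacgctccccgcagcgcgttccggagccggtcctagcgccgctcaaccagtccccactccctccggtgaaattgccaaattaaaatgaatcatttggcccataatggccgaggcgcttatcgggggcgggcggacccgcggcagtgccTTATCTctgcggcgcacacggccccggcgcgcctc
HEMGN first window, chr9:97944857-97945102, minus strand: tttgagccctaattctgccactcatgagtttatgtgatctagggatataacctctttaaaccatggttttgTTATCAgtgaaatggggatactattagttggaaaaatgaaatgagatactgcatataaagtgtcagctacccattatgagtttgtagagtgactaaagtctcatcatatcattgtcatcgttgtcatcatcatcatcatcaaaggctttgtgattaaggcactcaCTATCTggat
HEMGN second window, chr9:97938192-97938422, minus strand: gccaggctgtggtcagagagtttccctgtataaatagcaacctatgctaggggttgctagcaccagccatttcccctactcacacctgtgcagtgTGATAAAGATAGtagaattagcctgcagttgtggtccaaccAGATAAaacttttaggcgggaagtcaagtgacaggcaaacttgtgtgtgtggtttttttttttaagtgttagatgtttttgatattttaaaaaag
ZFPM1, shown for contrast as a window without a GATA word, chr16:88453030-88453279, plus strand: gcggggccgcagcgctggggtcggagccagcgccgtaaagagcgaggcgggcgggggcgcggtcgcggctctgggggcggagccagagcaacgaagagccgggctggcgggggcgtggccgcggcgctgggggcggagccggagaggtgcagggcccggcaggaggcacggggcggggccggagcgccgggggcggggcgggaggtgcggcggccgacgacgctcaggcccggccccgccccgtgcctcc
In KLF1 the words began 66 and 13 bases before the start, and in TAL1 35 bases before it. The first HEMGN window held words at 179 and 14 bases before its start and the second held 3, at 155, 149 and 114 bases before its own start. The HEMGN windows were 37.2% and 42.4% G and C, against 83.2% in ZFPM1. A word in a window is a description of the letters and not evidence of binding.

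All 10 factors passed the filter on low counts, and all 10 differed among the 5 groups (the quasi-likelihood test of edgeR, adjusted by Benjamini-Hochberg over all genes tested, with a gene called at an adjusted p under 0.05), where 73.6% of all genes did. At 0.15 µM 7 factors were called, where 51.2% of all genes were, and they split in direction. HEMGN, LMO2, KLF1 and LDB1 fell, which is 4 factors lower where 19.4% of all genes were lower, and NFE2, ZFPM1 and LYL1 rose, 3 factors where 31.9% of all genes were higher. At 0.25 µM 7 were called again (62.3% of all genes), 6 lower (24.8%) and only NFE2 higher (37.4%). Under library totals TAL1, LYL1 and ZFPM1 were called higher too, a split of 6 lower and 4 higher. Under TMM from genes of at least 10 CPM TAL1 and LYL1 were, a split of 6 lower and 3 higher. The bracketed shares are no background for these splits, as no share by direction is given for those scalings. There the median log2 fold change of all genes at 0.25 µM was 0.85 and 0.73, against 0.32 with TMM. At 0.5 µM 9 factors were called (66.9% of all genes), 9 lower (27.6%) and 0 higher (39.4%). At 1 µM 9 were called as well (66.2% of all genes), 9 lower (27.5%) and 0 higher (38.8%). The factor not called at either of the upper doses was LYL1. Counted by library, all 3 treated libraries lay below all 3 untreated ones in 5 factors at 0.15 µM (26% of all genes), 6 at 0.25 µM (28.4%), 10 at 0.5 µM (30%) and 9 at 1 µM (32.1%).

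A fall over 2-fold was called for 3 factors at 0.15 µM (5.58% of all genes) and 5 at 0.25 µM (13.1%). At 0.5 µM it was called for 8 (18.3%) and at 1 µM again for 8 (18.3%). The median log2 fold change of the 10 factors was -0.18, -1.01, -4.27 and -4.02 at the 4 doses. The 4 comparisons share the untreated libraries. HEMGN, LMO2, KLF1 and LDB1 were called lower at every dose. The share of all genes lower at all 4 doses was not counted, so these factors have no background to be set against. For LDB1, 10 of the 27 alternatives gave no call at 0.15 µM.

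**Figure D1:**
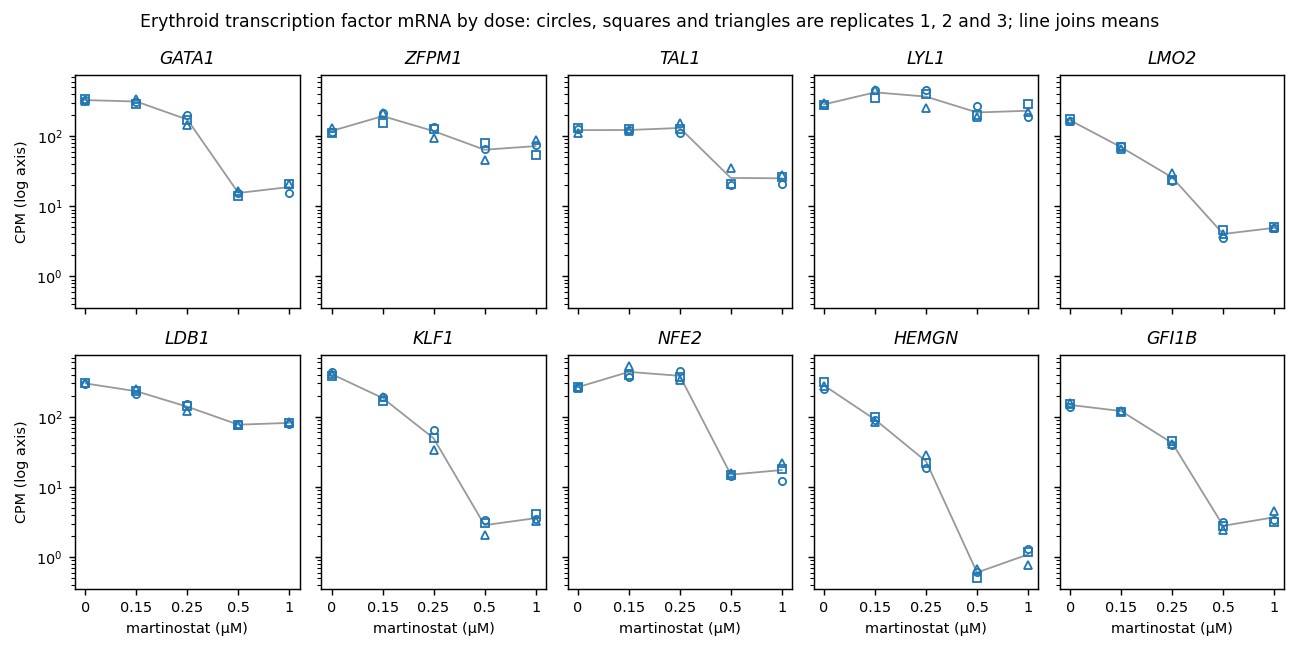
CPM of each factor (log axis) in the 15 libraries by martinostat dose in µM. Circles, squares and triangles are replicates 1, 2 and 3 and the line joins group means. GATA1, TAL1 and NFE2 stayed above 100 CPM up to 0.25 µM and lay at 34.9 CPM or lower at 0.5 µM, whereas LMO2, KLF1 and HEMGN were already lower at 0.15 µM.

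GATA1 (chrX:48786540-48794311, plus strand, hg38), the central activator of the programme, was not called different at 0.15 µM and fell most steeply between 0.25 and 0.5 µM, where the step was -3.48 on the log2 scale (SE 0.17, edgeR adjusted p = 6.32e-11). Its level was 326, 335 and 323 CPM in the untreated libraries and 308, 286 and 344 CPM at 0.15 µM. These 2 groups overlapped, and GATA1 differed by -0.068 (SE 0.15, adjusted p = 0.734) on the log2 scale in edgeR, with a positive sign under library totals (0.29) and under TMM from genes of at least 10 CPM (0.19). At 0.25 µM the libraries held 204, 168 and 146 CPM, all below the untreated range and with replicate 3 lowest, and GATA1 fell by 0.92 on the log2 scale (SE 0.15, edgeR adjusted p = 3.56e-05). At 0.5 µM they held 15.7, 14.2 and 16.6 CPM, and at 1 µM 15.3, 20.8 and 20.5 CPM. Both upper groups lay far below every other library and overlapped each other. The level at 0.5 µM was 21.1-fold lower than untreated (log2 -4.40, SE 0.18, adjusted p = 2.60e-13) and at 1 µM 17.4-fold lower (log2 -4.12, adjusted p = 4.58e-13).

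ZFPM1 (chr16:88453280-88537031, plus strand), the cofactor of GATA1, moved in both directions. Untreated libraries held 116, 111 and 129.8 CPM and libraries at 0.15 µM 212, 154 and 215 CPM, so that every treated library lay above every untreated one. The gene rose 1.63-fold (log2 0.70, SE 0.21, adjusted p = 0.00982). At 0.25 µM it was at 134, 129 and 92.9 CPM, overlapping the untreated libraries, with replicate 1 above their range and replicate 3 below it. The log2 fold change of -0.0059 was not called with edgeR. It was positive and called higher under library totals (0.50) and with limma on log2(FPKM + 1) (0.29) or log2(FPKM + 0.1) (0.47), and positive without a call under RLE (0.036) and TMM from genes of at least 10 CPM (0.40). Without the third replicates at 0.25 and 0.5 µM it was 0.17. At 0.5 and 1 µM the libraries held 66.3, 80.6 and 45.8 CPM and 74.4, 53.6 and 88.9 CPM, all below the untreated range. ZFPM1 was 1.85-fold lower at 0.5 µM (edgeR adjusted p = 0.00127) and 1.64-fold lower at 1 µM (adjusted p = 0.00635). The call at 1 µM was lost, with the direction kept, under library totals (log2 -0.36), TMM from genes of at least 10 CPM (-0.34), a minimum of 10 counts in every library (-0.44) and limma on log2(FPKM + 1) (-0.19) or log2(FPKM + 0.1) (-0.35). At 1 µM GATA1 was at 5.75% of its untreated level and ZFPM1 at 60.8%.

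Of the genes of the LDB1 complex, LMO2 and LDB1 were called lower from the lowest dose on. LMO2 (chr11:33858576-33892076, minus strand), the LIM-only protein that joins the TAL1 pair to GATA1, was at 164, 178 and 164 CPM untreated. At 0.15 µM it was at 72.2, 71.2 and 65.3 CPM and at 0.25 µM at 23.3, 24.0 and 30.1 CPM, each group lying wholly below the one before. It fell to 3.53, 4.56 and 4.00 CPM at 0.5 µM, where the libraries held 80, 109 and 147 counts, and lay at 4.86, 5.01 and 4.92 CPM at 1 µM. The log2 fold changes were -1.28, -2.71, -5.38 and -5.09 at the 4 doses, with SE from 0.13 to 0.16 and the largest edgeR adjusted p being 2.27e-07. At 0.15 µM 2.83% of all genes tested had a lower log2 fold change than LMO2.

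LDB1 (chr10:102106489-102120368, minus strand), the dimerising scaffold of the complex, was called lower at every dose. It was at 291, 302 and 304 CPM untreated and 209.7, 231 and 252 CPM at 0.15 µM, with no overlap. That change, -0.37 (SE 0.13, adjusted p = 0.0198) with edgeR, kept its sign but lost its call under library totals (-0.013), TMM from genes of at least 10 CPM (-0.11), a minimum of 10 counts in every library (-0.20), no filter (-0.37) and limma on log2(FPKM + 1) (-0.015) or log2(FPKM + 0.1) (-0.016). It was also lost without untreated replicate 2 (-0.36), untreated replicate 3 (-0.36) or replicate 1 (-0.30) or 2 (-0.37) at 0.15 µM. At the next doses it lay at 154, 141 and 122 CPM, 77.6, 77.3 and 76.5 CPM and 77.6, 82.7 and 85.0 CPM. The falls at 0.25, 0.5 and 1 µM were 2.15-fold, 3.88-fold and 3.65-fold (largest adjusted p = 5.36e-07).

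TAL1 (chr1:47216290-47232225, minus strand), the basic helix-loop-helix factor of the complex, was not called different up to 0.25 µM. The libraries held 126, 130.4 and 110.0 CPM untreated, 121, 127 and 119 CPM at 0.15 µM and 113, 129 and 152 CPM at 0.25 µM. The 3 groups overlapped, and the log2 fold changes were 0.0037 and 0.10 (adjusted p = 0.990 and 0.645 with edgeR), the first becoming -0.044 under RLE and the second being called higher under library totals (0.64), TMM from genes of at least 10 CPM (0.53) and limma on log2(FPKM + 1) (0.55). At 0.5 µM the libraries held 20.4, 21.0 and 34.9 CPM and at 1 µM 20.9, 26.0 and 28.4 CPM. Replicate 3 at 0.5 µM was the highest of these 6, and all 6 lay below every other library. TAL1 was 4.80-fold lower at 0.5 µM (log2 -2.26, SE 0.19, adjusted p = 5.79e-09) and 4.87-fold lower at 1 µM (log2 -2.28, SE 0.19, adjusted p = 5.09e-09). Without the third replicates at 0.25 and 0.5 µM the value at 0.5 µM was -2.52. An annotated gene on the other strand covers 14.8% of the exon bases of TAL1, and whether strand was used in counting is not given in the sources used here.

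LYL1 (chr19:13099033-13103161, minus strand), the close relative of TAL1, was the only one of the 10 with no call at 0.5 or 1 µM. It lay at 283, 276 and 296 CPM untreated and 452, 356 and 461 CPM at 0.15 µM, all 3 treated libraries above the untreated ones, a rise of 1.48-fold (log2 0.57, SE 0.21, adjusted p = 0.0272). That call was lost without any 1 of the untreated replicates 1, 2 and 3 (log2 0.56, 0.55 and 0.60) and without replicate 1 (0.52) or 3 (0.50) at 0.15 µM. At 0.25 µM the libraries held 453, 394 and 256 CPM. Here replicate 3 lay below the untreated range and the other 2 above it. The log2 fold change of 0.37 (adjusted p = 0.130) was called higher without that replicate (0.59), without the third replicates at 0.25 and 0.5 µM (0.60), under library totals (0.87), TMM from genes of at least 10 CPM (0.78), at least 10 counts in every library (0.65) and limma on log2(FPKM + 1) (0.84) or log2(FPKM + 0.1) (0.85). At 0.5 µM LYL1 lay at 268, 201 and 187 CPM, below the untreated range, and at 1 µM at 185, 287 and 220.4 CPM, overlapping it. Neither was called with edgeR (-0.38, adjusted p = 0.109, and -0.30, adjusted p = 0.204). The value at 1 µM turned to 0.050 under library totals and 0.079 under TMM from genes of at least 10 CPM, and that at 0.5 µM turned to 0.021 under the latter. The log2 fold change at 0.5 µM was called lower without replicate 1 of that dose (-0.56) and with no filter (-0.39).

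Next come factors outside that complex. KLF1 (chr19:12884422-12887201, minus strand), the activator that reads CACCC boxes, was at 439, 377 and 404 CPM in untreated cells. At 0.15 µM it was at 194, 169 and 192 CPM and at 0.25 µM at 65.0, 49.3 and 33.7 CPM, without overlap at either step. Replicate 3 was the lowest at 0.25 µM. At 0.5 µM it was at 3.40, 3.05 and 2.07 CPM, from 77, 73 and 76 counts, and at 1 µM at 3.44, 4.08 and 3.21 CPM. With edgeR, KLF1 had a log2 fold change of -1.14 (SE 0.20, adjusted p = 9.51e-05) at 0.15 µM, and it fell 8.24-fold at 0.25 µM, 145-fold at 0.5 µM (log2 -7.18, SE 0.26, adjusted p = 1.01e-13) and 114-fold at 1 µM. At 1 µM 0.0633% of all genes tested had a lower log2 fold change. The promoter window of KLF1 with its 2 GATA words is among those printed above.

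HEMGN (chr9:97926791-97944856, minus strand), the nuclear protein of erythroid precursors, had the lowest log2 fold change of the 10 at every dose. It was at 246, 316 and 276 CPM untreated. It held 88.9, 100.4 and 83.9 CPM with 0.15 µM and 18.6, 22.0 and 28.8 CPM at 0.25 µM. These groups were separate from each other. At 0.5 µM it was at 0.618, 0.502 and 0.680 CPM, which rests on 14, 12 and 25 counts, and at 1 µM at 1.31, 1.17 and 0.767 CPM, on 37, 34 and 22 counts. On log2(FPKM + 1), a scale that compresses low values, the difference from untreated at 0.5 µM was -3.68. With edgeR the log2 fold changes at the 4 doses were -1.62, -3.59, -8.83 and -8.00 (SE 0.17, 0.19, 0.25 and 0.24, largest adjusted p = 3.50e-07). The first of these is a 3.07-fold fall and the third a 456-fold fall. At 0.15 µM 0.831% of all genes tested had a lower log2 fold change than HEMGN.

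NFE2 (chr12:54292111-54301015, minus strand), the tissue-restricted part of NF-E2, was higher at the lower doses and lower at the upper ones. Untreated libraries held 267, 268 and 257 CPM, and those at 0.15 µM 375, 399 and 536 CPM, all above the untreated range, with replicate 3 the highest. At 0.25 µM they held 447, 371 and 333 CPM, again all above it. The rises were 1.65-fold at 0.15 µM (log2 0.72, SE 0.19, adjusted p = 0.00304) and 1.45-fold at 0.25 µM (log2 0.54, SE 0.18, adjusted p = 0.0167) with edgeR. The second call was lost when untreated replicate 3 was left out (0.51) and when replicate 1 of the 0.25 µM group was (0.41). At 0.5 µM the libraries held 14.4, 14.7 and 15.7 CPM and at 1 µM 12.2, 18.3 and 21.7 CPM, far below all others. NFE2 was 17.7-fold lower than untreated at 0.5 µM (adjusted p = 5.62e-12) and 15.2-fold lower at 1 µM (adjusted p = 9.68e-12). Between 0.25 and 0.5 µM its mRNA fell 25.7-fold (log2 -4.68, SE 0.22, adjusted p = 3.43e-11).

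GFI1B (chr9:132944000-132991687, plus strand), the repressor of the group, was called lower from 0.25 µM on. It was at 136, 151 and 155 CPM untreated and 122, 118 and 122 CPM at 0.15 µM. The 2 groups did not overlap, but the change of -0.29 (SE 0.14, adjusted p = 0.0894) was not called with edgeR. It was called lower under RLE (-0.34), DESeq2 (-0.34), only the groups compared (-0.26) and without the third replicates at 0.25 and 0.5 µM (-0.29). It turned to 0.070 under library totals and to 0.049 and 0.066 with limma on log2(FPKM + 1) and log2(FPKM + 0.1). At 0.25 µM it was at 39.7, 45.8 and 40.9 CPM, then at 3.14, 2.76 and 2.45 CPM with 0.5 µM and 3.37, 3.11 and 4.57 CPM with 1 µM. All 9 of these libraries lay below the 6 before them. The falls were 3.50-fold, 53.3-fold and 40.0-fold (largest adjusted p = 4.25e-09). An opposite-strand gene, TSC1, covers 5.72% of its exon bases.

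**Figure D2:**
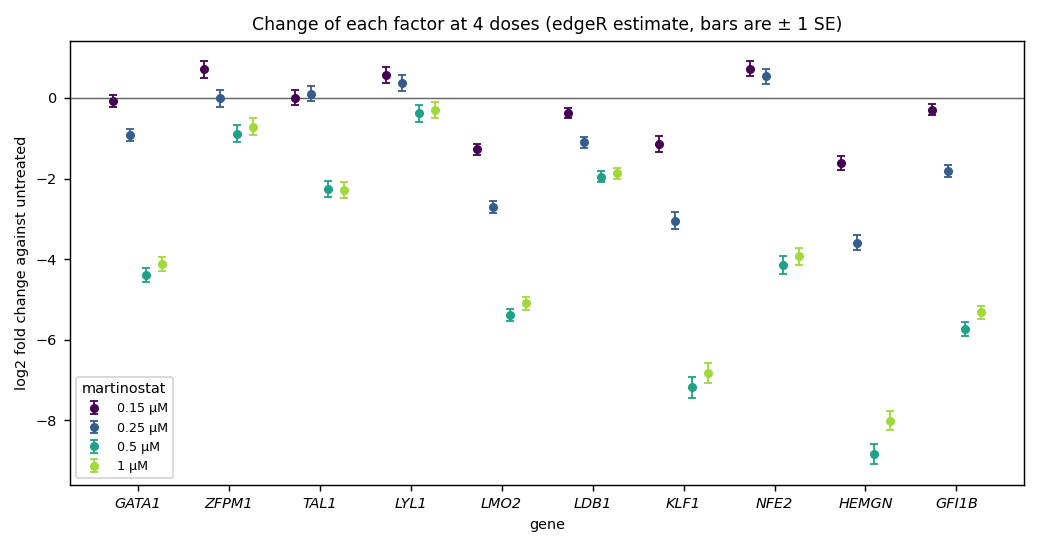
The log2 fold change of each factor against untreated at 4 doses, from edgeR with bars of 1 SE, derived from the test statistic. At 0.15 µM the points run from -1.62 (HEMGN) to 0.72 (NFE2), and at 0.5 µM from -8.83 (HEMGN) to -0.38 (LYL1). The points for 0.5 and 1 µM lie furthest apart for HEMGN (-8.83 and -8.00), and no factor was called between these doses.

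Levels of different genes were compared per kilobase of exon (RPKM, computed here from the scaled CPM and the exon length of each gene). In untreated cells the order was KLF1 (252 ± 19.3 RPKM, mean ± SD, n = 3), GATA1 (211 ± 3.81), HEMGN (127 ± 16.1), NFE2 (112 ± 2.54), LYL1 (91.3 ± 3.26), LDB1 (79.1 ± 1.78), LMO2 (58.2 ± 2.70), GFI1B (24.2 ± 1.63), TAL1 (21.4 ± 1.89) and ZFPM1 (19.3 ± 1.58). The libraries of HEMGN and NFE2 overlapped, as did those of GFI1B and TAL1 and those of TAL1 and ZFPM1. At 1 µM the order was LYL1 (74.0 ± 16.6 RPKM), LDB1 (21.7 ± 1.00), GATA1 (12.1 ± 1.98), ZFPM1 (11.7 ± 2.88), NFE2 (7.35 ± 2.03), TAL1 (4.40 ± 0.676), KLF1 (2.22 ± 0.278), LMO2 (1.70 ± 0.0254), GFI1B (0.603 ± 0.127) and HEMGN (0.495 ± 0.129). There the neighbours GATA1 and ZFPM1, ZFPM1 and NFE2, and GFI1B and HEMGN overlapped. KLF1, at the top in untreated cells, stood below 6 others at 1 µM, HEMGN stood last, and LYL1 stood at the top.

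**Figure D3:**
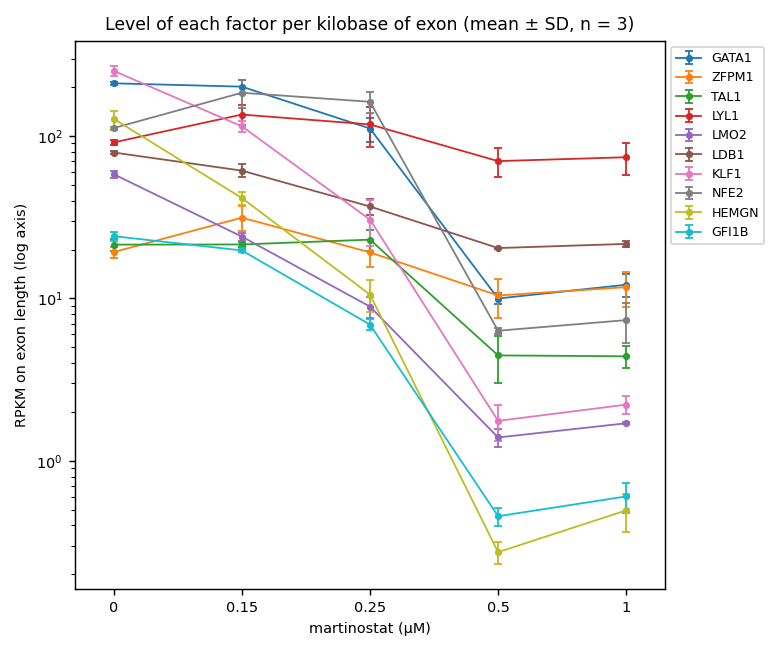
Level of each factor per kilobase of exon (RPKM, log axis) by martinostat dose in µM, as mean ± SD of 3 libraries. LYL1 went from 91.3 to 74.0 RPKM and HEMGN from 127 to 0.495 RPKM between untreated cells and 1 µM.

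Steps between neighbouring doses were tested in the same fit. From 0.15 to 0.25 µM 7 factors were called (12.3% of all genes), 7 lower (7.32%) and 0 higher (4.96%), with 4 lower by over 2-fold (1.39%). TAL1, LYL1 and NFE2 were not called at that step. The fall of ZFPM1 there (-0.71, SE 0.21, adjusted p = 0.0354) was lost under 10 of 27 alternatives, among them leaving out replicate 1 (-0.65) or 3 (-0.59) at 0.15 µM or replicate 2 (-0.78) or 3 (-0.55) at 0.25 µM. From 0.25 to 0.5 µM all 10 factors were called (30.4% of all genes), each lower (16%) and 7 by over 2-fold (9.37%), from 1.68-fold in LYL1 to 37.8-fold in HEMGN. LYL1 was not called at that step without replicate 1 at 0.25 µM (-0.57) or in a fit of only the groups compared (-0.76). In a fit of the 6 libraries at 0.25 and 0.5 µM with the replicate number as a block, chosen after seeing the data, all 10 factors were called and 46.1% of all genes were, against 22.5% in these libraries without the block. Without the third replicates at 0.25 and 0.5 µM the count at this step was still 10, with the share of all genes in that setting not given here. At 1 µM against 0.15 µM all 10 were called (44.5% of all genes), again each lower (23.1%, against 21.5% higher) and 9 by over 2-fold (14%).

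From 0.5 to 1 µM none of the 10 factors was called by edgeR, and none of all genes tested (0%). At an unadjusted p under 0.05 in edgeR there were 372 of the 23711 genes tested, and 2 of them were factors. These were HEMGN (log2 0.83, SE 0.27, unadjusted p = 0.00582) and GFI1B (log2 0.41, SE 0.16, unadjusted p = 0.0211). DESeq2 and limma-voom called 0 genes too, and limma on log2(FPKM + 1) called 1 gene of all tested. The mean CPM was higher at 1 than at 0.5 µM in 9 of the 10 factors, TAL1 being the exception, by differences that no test called. The share of all genes with a higher mean at 1 µM was not counted, so this count has no background.

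The factors were compared across libraries to show whose course was alike. Over the 15 libraries, Pearson's r of log2 CPM for the 45 pairs of factors ran from 0.564 (LYL1 and LMO2) to 0.994 (LMO2 and HEMGN), with a median of 0.905. The points share their 5 doses, their libraries and their scaling, so these values describe the course over dose and are given without a test. The search for the most alike gene covered 10127 genes whose mean reached 10 CPM. It gave CBFA2T3 (r = 0.996) for GATA1, MICALL1 (r = 0.973) for ZFPM1, TFPI (r = 0.994) for TAL1, AKR1A1 (r = 0.964) for LYL1, STAT5A (r = 0.995) for LMO2, UBTF (r = 0.998) for LDB1, TOR4A (r = 0.996) for KLF1, RCSD1 (r = 0.994) for NFE2, ARRDC2 (r = 0.996) for HEMGN and NDST1 (r = 0.995) for GFI1B. CBFA2T3, a co-repressor found in the TAL1 complex, had a mean of 191 ± 19.9 CPM in untreated cells, 84.4 ± 7.15 CPM with 0.25 µM and 2.85 ± 0.312 CPM with 0.5 µM (SD, n = 3). At 0.15 µM it was called higher (0.55, SE 0.15, adjusted p = 0.00571 in edgeR), where GATA1 was not called.

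Related genes that can share a role with a factor were set against it within each library, as the log2 ratio of counts, which does not depend on the scaling. GATA2, the GATA factor of earlier progenitors, had 247, 261 and 263 CPM untreated and 252, 248 and 276 CPM at 1 µM. Its log2 fold change at 1 µM was 0.0097 (SE 0.15, adjusted p = 0.960) with edgeR, and it was called higher under library totals (0.36) and under TMM from genes of at least 10 CPM (0.39). The log2 ratio of GATA1 to GATA2 was 0.40, 0.36 and 0.30 in untreated libraries and -4.04, -3.58 and -3.75 at 1 µM, without overlap. The mean difference from untreated was -0.30, -1.02, -4.21 and -4.14 at the 4 doses.

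GFI1, the relative of GFI1B used in other blood lineages, was low in untreated cells, at 1.85 ± 0.303 CPM (SD, n = 3), and lay at 8.33, 8.23 and 7.78 CPM at 0.15 µM. GFI1 was called higher with 0.15 µM (2.13, SE 0.28, adjusted p = 4.31e-06 in edgeR) and with 1 µM (0.91, SE 0.28, adjusted p = 0.00779). The log2 ratio of GFI1B to GFI1 went from 6.29, 6.09 and 6.54 to -0.015, -0.17 and 0.35 at 1 µM, close to equal counts. The differences from untreated were -2.42, -4.16, -6.72 and -6.25 at the 4 doses. The ratio of TAL1 to LYL1 was -1.16, -1.08 and -1.43 untreated and -3.15, -3.46 and -2.95 at 1 µM. Its differences were -0.55, -0.23, -1.91 and -1.97, and at 0.25 µM the groups overlapped and the sign turned without replicate 1 there (0.04). With 3 libraries against 3, the exact two-sided permutation test cannot go below p = 0.1. All 12 ratio tests stood at p = 0.1 (0.109 after Benjamini-Hochberg adjustment over the 12) except TAL1 to LYL1 at 0.25 µM, with an exact p = 0.6.

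**Figure D4:**
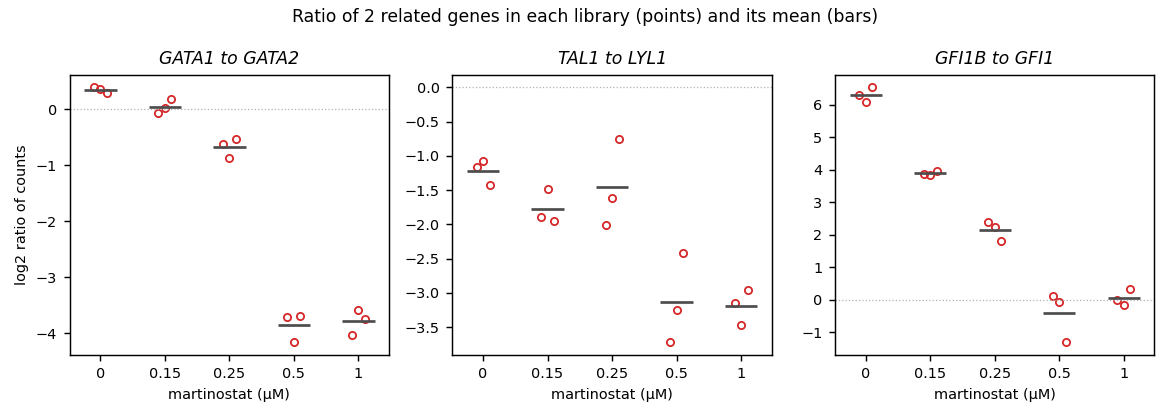
The log2 ratio of counts of a pair of related genes in each library (points), with group means (bars), by martinostat dose in µM. In the panels of GATA1 to GATA2 and of GFI1B to GFI1 the untreated libraries lie above all libraries at 0.25 µM or more, and in that of TAL1 to LYL1 the group at 0.25 µM overlaps the untreated group.

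The other genes of the network were taken from lists of dimer partners and co-repressors, of paralogs, of erythroid target genes other than globins, and of other blood cell factors. In brackets beside each list count is the share of all genes called in that direction with TMM. These shares are no background for the counts under library totals, for which no share by direction is given. The median log2 fold change of all genes tested was higher under library totals. It was 0.64 at 0.15 µM and 0.67 at 1 µM, against 0.28 and 0.32 with TMM. Of the 15 partners, 7 were lower (19.4%) and 1 higher (31.9%) at 0.15 µM. At 1 µM 10 were lower (27.5%) and 2 higher (38.8%). Under library totals the split became 3 lower and 5 higher at 0.15 µM and 7 lower and 5 higher at 1 µM. The extremes at 1 µM were CBFA2T3 (-5.79) and TCF12 (-1.63), an E protein that pairs with TAL1, at the low end, and CBFA2T2 (1.22) and SSBP2 (0.89), which protects LDB1 in its complexes, at the high end. TCF12 went from 129, 164 and 141 CPM to 49.5, 40.6 and 50.0 CPM at 1 µM. The median over the partners at 1 µM was -0.96, against -4.02 over the 10 factors and 0.32 over all genes tested.

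Of the 15 paralogs 13 were tested, with 1 lower (19.4% of all genes) and 8 higher (31.9%) at 0.15 µM. At 1 µM 4 were lower (27.5%) and 4 higher (38.8%). Under library totals the split became 0 lower and 10 higher at 0.15 µM and 3 lower and 6 higher at 1 µM. LMO1 and LDB2 had too few counts. GATA3, a factor of T cells, had 0, 2 and 6 counts in the untreated libraries and 121, 128 and 140 counts at 1 µM. GATA4, a factor of heart and gut, had 8, 2 and 10 counts untreated and 246, 296 and 212 counts at 1 µM. Both were called higher. The lowest log2 fold changes among called paralogs that reached 1 CPM on average were those of NFE2L2 (-0.87), the widely expressed relative of NFE2, and GATA6 (-0.79, lost under library totals at -0.44 and under TMM from genes of at least 10 CPM at -0.41).

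Of the 14 erythroid target genes 13 were tested. At 0.15 µM 1 was lower (19.4% of all genes) and 3 were higher (31.9%). At 1 µM 10 were lower (27.5%) and 1 was higher (38.8%). The count of 1 lower at 0.15 µM became 2 without replicate 1 or 3 at 0.5 µM or replicate 2 at 1 µM. The split under library totals was 0 lower and 6 higher at 0.15 µM and 8 lower and 2 higher at 1 µM. RHAG, the Rh-associated glycoprotein, went from 459, 555 and 503 CPM to 17.5, 17.3 and 27.1 CPM at 1 µM (log2 -4.61). EPOR, the erythropoietin receptor, fell by 0.66 on the log2 scale at 1 µM, a call lost under library totals (-0.31) and under TMM from genes of at least 10 CPM (-0.28). TRIM10 was called higher from 0, 2 and 0 counts untreated to 13, 20 and 16 counts at 1 µM. The median over the targets was 0.10 at 0.15 µM and -1.92 at 1 µM.

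Of the 8 other blood factors 7 were tested. At 0.15 µM 1 was lower (19.4% of all genes) and 4 higher (31.9%), and at 1 µM 4 were lower (27.5%) and 2 higher (38.8%). Under library totals these became 1 lower and 6 higher at 0.15 µM and 4 lower and 2 higher at 1 µM. IKZF1, a lymphoid zinc finger factor, and MYB, the factor of proliferating progenitors, had the lowest log2 fold changes at 1 µM (-3.28 and -2.62), while among called genes that reached 1 CPM on average MEIS1 had the highest (1.25) and ETV6 the next (-1.01). MYB went from 203, 205 and 207 CPM to 27.5, 28.0 and 44.2 CPM, and MEIS1 from 5.52, 5.25 and 3.44 CPM to 12.7, 9.74 and 11.4 CPM. The count of 2 higher became 1 when untreated replicate 1, 2 or 3, replicate 2 at 0.15 µM, any replicate at 0.25 µM, or replicate 1 or 3 at 1 µM was left out. The count of 4 higher at 0.15 µM became 1 without untreated replicate 2 and 2 without untreated replicate 3 or replicate 2 or 3 at 0.15 µM. FLI1, a megakaryocytic factor, had too few counts to be tested. These lists are described by their counts and medians alone.

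**Figure D5:**
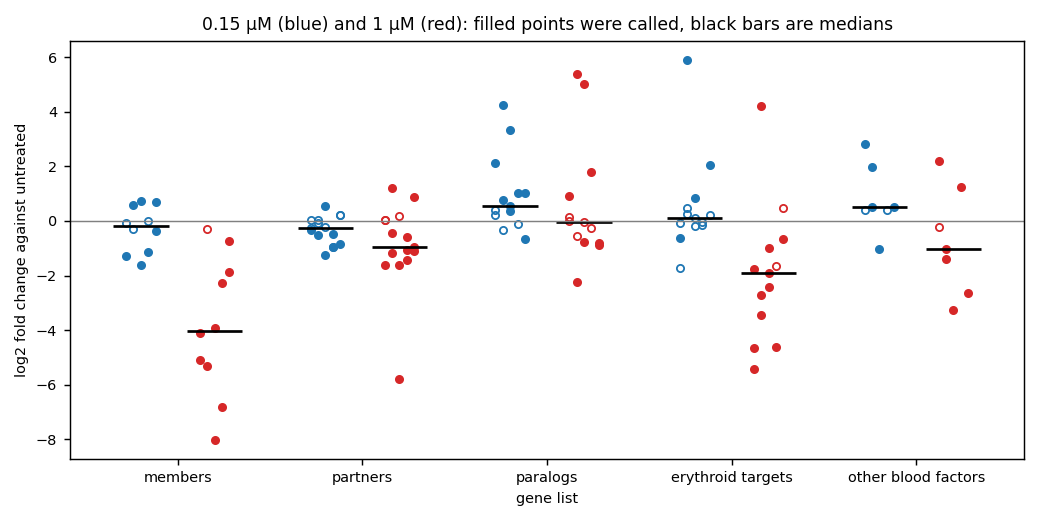
The log2 fold change against untreated of each tested gene of the 10 factors and of the 4 lists, at 0.15 µM (blue) and 1 µM (red), with filled points for genes called by edgeR and black bars for medians. The median of the 10 factors is -0.18 at 0.15 µM and -4.02 at 1 µM, and that of the targets 0.10 and -1.92.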

How the data were processed

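The authors isolated poly(A) RNA from K562 cells, prepared directional libraries, trimmed the paired reads with Trim Galore 0.6.10 (per the labels), aligned them to hg38 with HISAT2 2.2.1 and counted fragments per GENCODE gene with featureCounts 1.5.3. The strand setting of the counting is not given in the sources used here. The deposited count table held raw counts, and the deposited FPKM tables, computed by the authors on gene lengths that include introns, served as an alternative only. Genes were matched by Ensembl identifier without its version (symbols for 99.8%). Positions and exon lengths came from GENCODE on hg38, a later release than that of the counting. All 37 mitochondrial genes had 0 counts, so a mitochondrial share was not used.

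The fit used edgeR 4.0.16 (R 4.3.3). filterByExpr kept 23711 genes, TMM set the library sizes, and 1 robust glmQLFit over all 15 libraries took the dose group as its sole factor, with a biological coefficient of variation of 0.228. Calls needed a Benjamini-Hochberg adjusted p under 0.05 over all genes tested. Each SE was derived from the edgeR test, as the absolute log2 fold change divided by the square root of its F statistic. Alternatives were RLE, library totals and TMM from genes of at least 10 CPM, 2 filters, DESeq2 1.42.0, limma 3.58.1 (voom, and log2 of FPKM plus 1 or 0.1), only the groups compared, a replicate block, and each library left out. The correlation of deviations from the group means was over 0.1 in all 3 same-numbered pairs of the 0.25 and 0.5 µM groups (0.208 to 0.506), which were therefore also fitted alone with the number as a block, and ran from -0.052 to 0.073 in the 27 same-numbered pairs of other groups. Deviations from the mean of 3 libraries cancel out within a group, so the 3 values for 0.25 and 0.5 µM are not separate signs of pairing. Any pairing by number is read from these data alone and is not established, as the labels give the numbers without a shared day or batch. Ratios used counts plus 0.5. The scripts were tested on simulated data.

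The 10 factors and the gene lists were chosen with earlier results of these data known. Each list contributed its 4 most extreme genes at 1 µM, 2 at either end, out of those called there that reached a mean of 1 CPM, except 1 gene that is not reported here. GATA2 and GFI1 were named for the ratios, and each factor's most alike gene had to reach 10 CPM on average.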

Additional observations from a re-analysis of the deposited data

Results flagged for a closer look

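A pair of the 10 factors moved in opposite directions at the lowest and the highest dose, and the test between these doses was passed. ZFPM1 was higher than untreated at 0.15 µM (0.70 on the log2 scale) and lower at 1 µM (-0.72), and 1 µM against 0.15 µM gave -1.42 (SE 0.22, edgeR adjusted p = 2.92e-05), with all 3 libraries at 0.15 µM above and all 3 at 1 µM below the untreated range. NFE2 was higher at 0.15 µM (0.72) and lower at 1 µM (-3.93), and 1 µM against 0.15 µM gave -4.65 (SE 0.22, edgeR adjusted p = 1.83e-11), again without overlap. The fall of ZFPM1 against untreated at 1 µM was not called under library totals, whereas its difference between the doses was called in all 27 alternatives. No group held more than 3 libraries, so no single library was tested as an outlier.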

How the results depend on the processing

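Of 80 results for the 10 factors (8 comparisons each), 60 kept their direction and their side of the threshold in all 27 alternatives, and of 59 calls 6 were lost in at least 1 alternative and 0 turned. Of the 18 calls at 0.5 and 1 µM against untreated, 17 held throughout, ZFPM1 at 1 µM being the exception. Of 21 results without a call, 12 changed sign in at least 1 alternative. The cause of these changes was not tested. Only 3 libraries a group limit what small changes can be called, and HEMGN at 0.5 µM rests on 12 to 25 counts.

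Changes of sign were these, on the log2 scale, with TMM10 for TMM from genes of at least 10 CPM and FPKM for limma on log2(FPKM + 1) and then on log2(FPKM + 0.1). GATA1 at 0.15 µM turned to 0.29 (library totals), 0.19 (TMM10), 0.11 (at least 10 counts in every library) and 0.28 and 0.29 (FPKM). GFI1B at 0.15 µM turned to 0.070 (totals), 0.049 and 0.066 (FPKM). TAL1 at 0.15 µM turned to -0.044 (RLE) and -0.044 (DESeq2). ZFPM1 at 0.25 µM turned to 0.036 (RLE), 0.50 (totals), 0.40 (TMM10), 0.28 (at least 10 counts), 0.036 (DESeq2), 0.29 and 0.47 (FPKM), 0.061 (only the groups compared) and 0.17 (without the third replicates at 0.25 and 0.5 µM). LYL1 turned to 0.021 at 0.5 µM (TMM10), and at 1 µM to 0.050 (totals), 0.079 (TMM10), 0.026 and 0.026 (FPKM). Without the third replicates at 0.25 and 0.5 µM, LYL1 at 0.25 against 0.15 µM turned to 0.021, and at 1 against 0.5 µM ZFPM1 turned to -0.020, TAL1 to 0.28 and LYL1 to -0.016. With each library left out in turn, TAL1 at 0.15 µM ran from -0.067 to 0.054 and ZFPM1 at 0.25 µM from -0.10 to 0.16. For 0.25 against 0.15 µM, LYL1 ran from -0.38 to 0.019, NFE2 from -0.32 to 0.027 and TAL1 from -8.3e-04 to 0.19. For 1 against 0.5 µM, ZFPM1 ran from -0.022 to 0.37, TAL1 from -0.15 to 0.28 and LYL1 from -0.10 to 0.25. The log2 ratio of TAL1 to LYL1 at 0.25 µM ran from -0.59 to 0.041.

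Without the filter, 25.5%, 32.2%, 35.1% and 34.8% of all genes were called at the 4 doses against untreated, 6.64% for 0.25 against 0.15 µM, 14.5% for 0.5 against 0.25 µM and 21.7% for 1 against 0.15 µM. The share for 0.25 against 0.15 µM ran from 6.87% to 16.4% with 1 library left out. For 1 against 0.5 µM, both FPKM fits called 0.00422%. With 1 library left out, the number of factors called was 5 to 7, 6 to 8, 9 to 10 and 9 to 9 at the 4 doses. The share of all genes called was then 42.7% to 53.4%, 54.9% to 63.5%, 60.4% to 66.6% and 59.9% to 67.3%.

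The list counts below come without a share of all genes by direction in the same setting, so they have no background here. At 0.15 µM, partners lower were 3 under totals, 3 under TMM10, and 3 and 3 with FPKM. Partners higher were 5, 3, 3 and 4 in the same order, and 3 with at least 10 counts. Paralogs lower were 0 in those 4 settings. Targets lower were 0 under totals, TMM10, at least 10 counts and FPKM plus 0.1, and 2 with no filter, DESeq2, limma-voom, only the groups compared and without the third replicates, and 1 to 2 with 1 library left out. Targets higher were 6, 6, 7 and 5 under totals, TMM10 and both FPKM fits. Other blood factors higher were 2 under RLE and DESeq2 and 1 to 5 with 1 library left out. At 1 µM, partners higher were 5 and 5 under totals and TMM10, 4 with at least 10 counts, and 4 and 4 with FPKM. Targets higher were 2 under totals, TMM10, DESeq2 and FPKM plus 0.1. Other blood factors higher were 1 with at least 10 counts, no filter, limma-voom, both FPKM fits and only the groups compared, and 1 to 2 with 1 library left out. Paralogs lower were 1 and 1 with FPKM.

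Libraries of the same number deviated alike at 0.25 and 0.5 µM, and in no other 2 groups. The third replicates were the most alike (r = 0.506). Replicate 2 at 0.25 µM and replicate 1 at 0.5 µM had r = 0.184, near the 0.208 of both second replicates. Whether the numbers pair the libraries is therefore not known. With the number as a block over all 15 libraries, TAL1 at 0.15 µM was -0.0019. The number of factors called was 7, 7, 9 and 9 at the 4 doses against untreated, as without the block. The shares of all genes at these doses with the block are not given here. For 0.5 against 0.25 µM it called 10 factors, as without it, and 30.2% of all genes. With the block in the 6 libraries at 0.25 and 0.5 µM alone, an alternative added after seeing the data, the factors called were 10 and the share of all genes 46.1%. Neither block changed the call of a factor made in the main fit of all 15 libraries. Against a fit of the same 6 libraries without the block, 1 factor changed. LYL1 was not called there (-0.76, edgeR adjusted p = 0.0523) and was called with the block (-0.74, edgeR adjusted p = 4.91e-05).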
